A study of Mus musculus with 9 samples.

Results

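The genes that carry zinc and copper across membranes, and those that bind the metals inside the cell, were examined in the mouse choroid (CH), retinal pigment epithelium (RPE) and photoreceptors (PR). The members are the 36 genes whose name on the array is Slc30a or Slc39a followed by a number, or is Mt1, Mt2, Mt3, Mt4, Mtf1, Slc31a1, Slc31a2, Atp7a, Atp7b, Atox1, Ccs or Cox17. They are measured by 42 of the 39429 probes and make up 36 of the 31829 gene names on the array. Among them are 14 zinc importers (15 probes), 10 zinc exporters (11 probes), 5 genes of the metallothionein group (7 probes) and 7 copper genes (9 probes). Every probe matched a RefSeq gene of the same symbol by its accession.

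All samples came from female C57BL/6 mice, labelled as 6 months old with a range of 2 weeks, and no group carried a treatment or a mutation. The methods give the substrain as C57BL/6JOlaHsd and a slightly younger age than the labels. Each of the 3 tissues was laser dissected and hybridised as 3 samples, each from a whole eye, which gave 9 dual-colour arrays. According to the methods, sections were cut thicker for the PR than for the RPE and the CH, so that preparation differed with the tissue. On every array the tissue was labelled with Cy5 after amplification and a common reference of mouse choroid and RPE RNA with Cy3, so that no dyes were swapped. The values below are log2 ratios of the tissue over this reference, in the order of replicates 1, 2 and 3, and a value of 0 means a signal equal to that of the reference. A probe was called when the fold change (FC) between tissues was above 2.5 and the Benjamini-Hochberg (B-H) adjusted p-value of limma was below 0.01 over all probes. The p-values measure the spread between these samples, and the 3 comparisons share arrays, so that their values are given side by side.

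The RPE, rod and fibroblast marker lists followed the labels, whereas the endothelial list did not separate the CH from the RPE. The 6 RPE markers averaged between 1.78 and 2.22 on the RPE arrays, from 0.32 to 1.05 on those of the CH and from -2.70 to -2.61 on those of the PR. The 7 rod markers averaged 3.50 to 3.69 in the PR and at most 0.20 elsewhere. The 6 fibroblast markers averaged 1.27 to 1.69 in the CH and -1.15 to -0.80 in the RPE, while the 6 endothelial markers overlapped between the CH (0.95 to 1.64) and the RPE (1.07 to 1.18). CH replicate 3 had the highest RPE marker level of the CH arrays. In such bulk samples fewer cells of a type and less RNA per cell cannot be told apart.

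Zinc enters the cytosol through the ZIP family, whose genes are named Slc39a, and leaves it across the cell surface or into vesicles through the ZnT family, named Slc30a. Metallothioneins are small proteins rich in cysteine that bind zinc and copper, and the zinc-sensing transcription factor Mtf1 switches on their genes by binding metal response elements in the promoter. Copper is taken up by Slc31a1 (CTR1) and handed by the chaperone Atox1 to the pumps Atp7a and Atp7b, which load copper enzymes in the secretory pathway and export the metal. Ccs delivers copper to superoxide dismutase, and Cox17 is a copper chaperone of the mitochondria. The RPE is known for its high content of zinc and copper, part of which is bound to pigment granules, and tyrosinase, the first enzyme of melanin synthesis, needs copper.

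The promoters of Mt1, Mt2 and Mt3, which were higher in the RPE and the CH than in the PR, and of Slc30a1, another gene known to be switched on by Mtf1 but without a called difference, are shown for comparison. The 250 bases before the annotated start are given 5′ to 3′ from RefSeq on GRCm38.p6, all on the plus strand, at chr8:94178839-94179088 for Mt1, chr8:94172368-94172617 for Mt2, chr8:94152357-94152606 for Mt3 and chr1:191906531-191906780 for Slc30a1. Capitals mark the cores of the metal response element, TGCACNC or TGCGCNC, on either strand.
Mt1: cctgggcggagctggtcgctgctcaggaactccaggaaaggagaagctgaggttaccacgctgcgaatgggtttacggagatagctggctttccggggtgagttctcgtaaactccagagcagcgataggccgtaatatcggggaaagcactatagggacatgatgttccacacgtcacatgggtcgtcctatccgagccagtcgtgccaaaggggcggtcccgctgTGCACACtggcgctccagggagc
Mt2: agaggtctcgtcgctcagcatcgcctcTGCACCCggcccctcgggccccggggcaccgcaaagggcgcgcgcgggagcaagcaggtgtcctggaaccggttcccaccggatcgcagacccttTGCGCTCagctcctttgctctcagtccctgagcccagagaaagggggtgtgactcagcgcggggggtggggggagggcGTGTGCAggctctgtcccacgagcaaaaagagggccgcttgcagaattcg
Mt3: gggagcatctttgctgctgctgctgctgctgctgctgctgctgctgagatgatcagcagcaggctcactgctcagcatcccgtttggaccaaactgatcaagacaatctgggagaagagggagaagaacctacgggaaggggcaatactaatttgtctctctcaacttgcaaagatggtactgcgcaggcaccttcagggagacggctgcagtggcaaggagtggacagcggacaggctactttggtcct
Slc30a1: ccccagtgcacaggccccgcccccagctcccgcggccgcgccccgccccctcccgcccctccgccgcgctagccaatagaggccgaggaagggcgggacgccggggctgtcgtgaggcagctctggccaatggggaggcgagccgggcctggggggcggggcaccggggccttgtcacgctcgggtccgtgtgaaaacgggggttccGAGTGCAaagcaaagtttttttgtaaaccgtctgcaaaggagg

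The Mt2 window held 3 cores, the Mt1 and the Slc30a1 windows held 1 each, and the Mt3 window held 0. When the 50 bases after the start were included, the counts were 4 for Mt2, 3 for Mt1, 2 for Slc30a1 and 1 for Mt3. The counts, most of all that of Mt1, thus depended on where the window ended. They give no order of the promoters. Whether the annotated start is the one used in these tissues was not tested. Of all 32851 promoter windows in the table, 21.4% held at least 1 core in the 250 bases and 1.26% held at least 3. Of the members, 30 genes had 35 windows in the table, and 17 of these windows (48.6%) held at least 1 core. A match of these letters is a description and no binding was measured.

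Between the tissues, 12 of the 36 genes had a called difference in at least 1 comparison and 24 had none. The plot of the 36 genes shows these differences by role. The share with a call in any comparison was not counted over all genes. By comparison, 3577 of all 31829 gene names were called higher in RPE than in PR, beside 10 of the members. In CH against PR, 4186 were called higher in the CH, beside 8 of the members. In the RPE against the PR, 11 of the 42 probes (26.2%), of 10 genes, were called higher in the RPE, where 10.2% of all probes were. They belong to the importers Slc39a1, Slc39a4, Slc39a8 and Slc39a12, the metallothioneins Mt1, Mt2 and Mt3, and the copper genes Slc31a1, Atp7a and Atox1. In the same comparison, 2 probes (4.76%), both of Slc31a2, were called higher in the PR, against 5.22% of all probes.

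In the CH against the PR, 9 probes (21.4%) of 8 genes were called higher in the CH, where 12% of all probes were. They are the same genes without Slc31a1 and Atox1. In the opposite direction, 3 probes (7.14%), of Slc31a2 and Slc30a9, were called higher in the PR, against 6.4% of all probes. Between the RPE and the CH, 1 probe (2.38%), of Slc39a12, was called higher in the RPE, against 0.185% of all probes. No member probe was called higher in the CH by limma, against 1.55% of all probes. In that direction 4 of the 42 had an unadjusted p below 0.05 and 3 an adjusted p below 0.01. Of all 39429 probes, 6198 and 2726 did. The median log2 difference over the members was 0.18 for RPE minus CH, 0.35 for RPE minus PR and 0.36 for CH minus PR, beside 0.04, -0.01 and -0.06 over all probes.

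**Figure D1:**
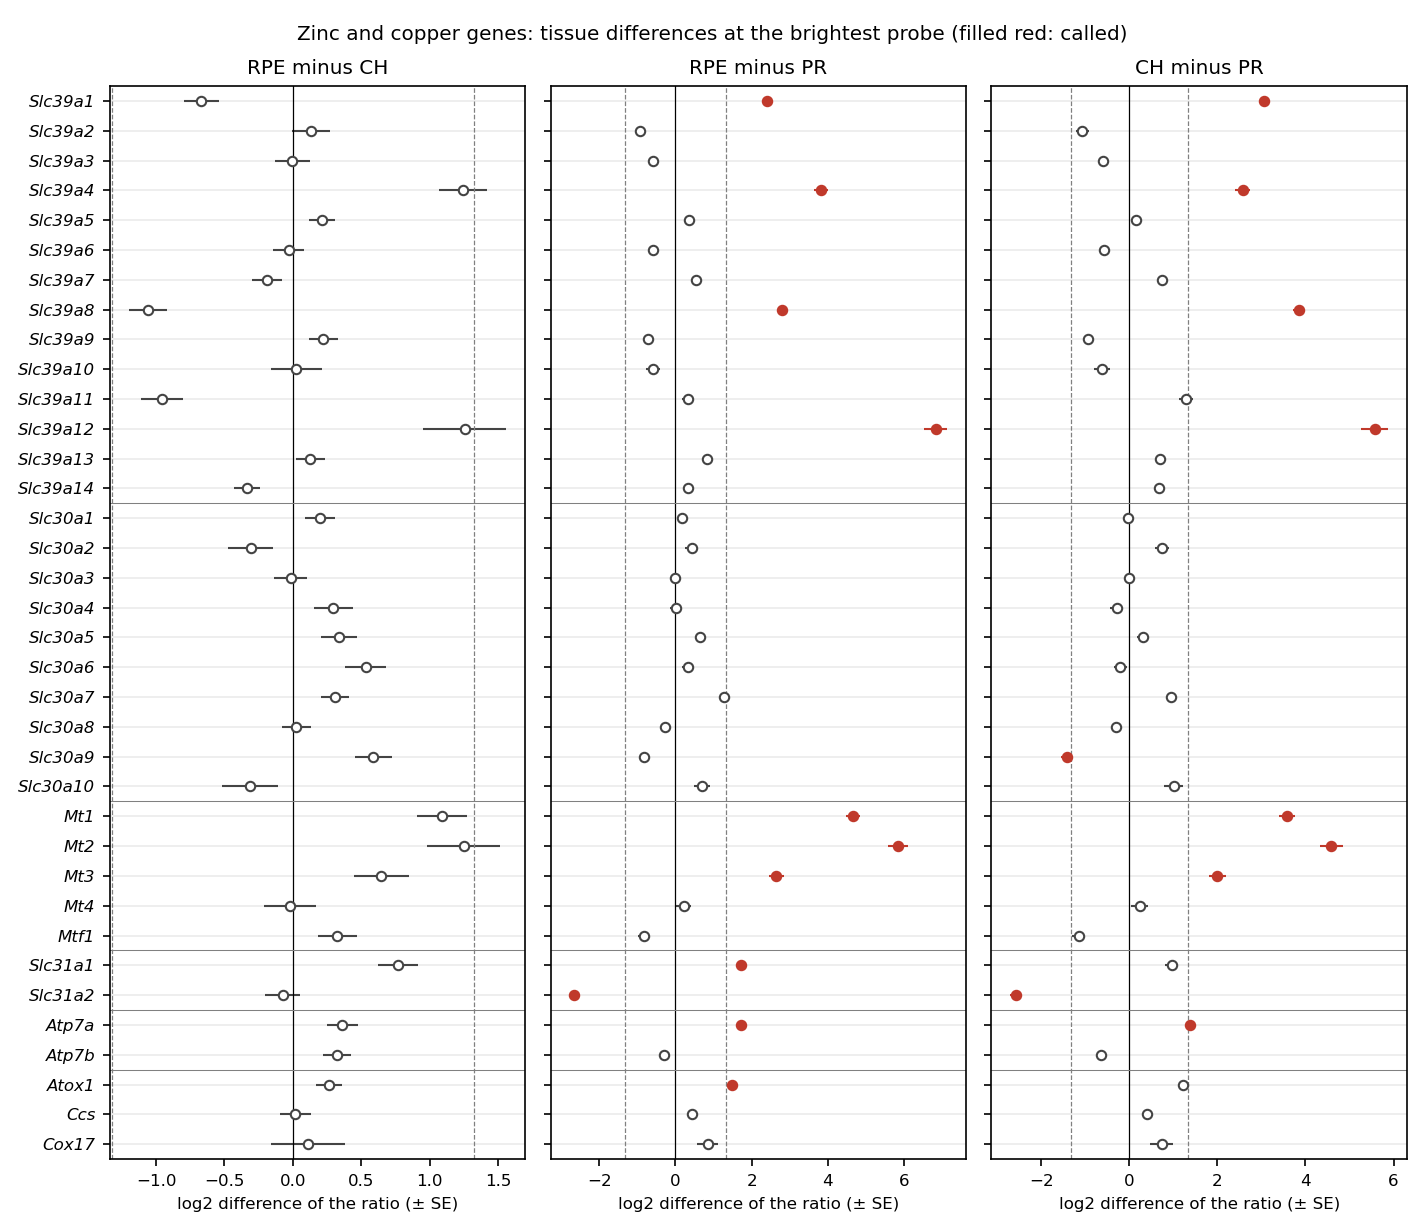
Log2 differences between tissues (± SE, 3 arrays per tissue) at the brightest probe of each of the 36 genes, in the order importers, exporters, metallothioneins with Mtf1, copper uptake, copper pumps and copper chaperones. The vertical axis lists the genes, dashed lines mark an FC of 2.5 and filled red points were called: 10 genes for RPE minus PR on the right and Slc31a2 on the left, and no gene for RPE minus CH, where the called Slc39a12 probe is the dimmer one.

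The importer Slc39a12 (ZIP12, a zinc importer of the cell surface known mainly from brain) was lowest in the PR at both of its probes. At its brighter probe, chr2:14416384-14416443 on mm9, the log2 ratios were -0.63, -0.51 and 0.69 in the CH, 1.02, 1.09 and 1.21 in the RPE and -5.43, -5.97 and -5.76 in the PR. The 3 tissues did not overlap, and CH replicate 3 lay close to the RPE arrays. RPE minus PR was 6.83 ± 0.30 (SE), an FC of 114 (adjusted p = 7.65e-08), and CH minus PR was 5.57 ± 0.30 (adjusted p = 2.02e-07). RPE minus CH was 1.26 ± 0.30 and was not called (adjusted p = 0.0158).

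A second Slc39a12 probe, at chr2:14357333-14357392 on mm9, gave -1.28, -1.96 and -1.58 in the CH, -0.07, -0.15 and -0.11 in the RPE and -2.94, -3.46 and -3.25 in the PR. Here CH replicate 3 lay between the other CH arrays. RPE minus CH was 1.49 ± 0.18, an FC of 2.81 that was called (adjusted p = 0.000561). The difference to the PR was smaller than at the brighter probe, at 3.10 ± 0.18 for the RPE (adjusted p = 3.83e-07) and 1.61 ± 0.18 for the CH (adjusted p = 3.15e-05). Both probes carry the same accession, and whether they detect the same transcripts was not tested. The RPE minus CH call of the dimmer probe was lost without CH replicate 2, with a difference of 1.31 (adjusted p = 0.00189).

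Slc39a4 (ZIP4, the importer that takes up dietary zinc in the gut) was next to Slc39a12 among the importers in its difference between the RPE and the PR. Its probe, at chr15:76442866-76442925 on mm9, gave -0.38, -0.71 and 0.10 in the CH, 0.91, 0.98 and 0.86 in the RPE and -2.81, -2.88 and -3.01 in the PR. The RPE arrays lay close together and above all CH arrays, and these above all PR arrays. RPE minus PR was 3.82 ± 0.18, an FC of 14.1 (adjusted p = 9.27e-08), and CH minus PR was 2.57 ± 0.18 (adjusted p = 9.36e-07). RPE minus CH was 1.24 ± 0.18 (adjusted p = 0.00118), an FC of 2.37 that stayed just short of the threshold.

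Slc39a1 (ZIP1, a widely expressed importer of the cell surface) and Slc39a8 (ZIP8, which carries zinc and manganese) had the reverse order of the CH and the RPE. Slc39a1, at chr3:90057457-90057516 on mm9, gave 1.12, 0.99 and 0.95 in the CH, 0.25, 0.52 and 0.27 in the RPE and -2.19, -1.80 and -2.14 in the PR. Slc39a8, at chr3:135551169-135551228 on mm9, gave -0.76, -0.78 and -1.12 in the CH, -1.85, -1.89 and -2.10 in the RPE and -4.53, -4.89 and -4.80 in the PR. At either gene, every CH array lay above every RPE array, and every RPE array above every PR array.

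For Slc39a8, CH minus PR was 3.86 ± 0.14, an FC of 14.5 (adjusted p = 1.41e-08), and RPE minus PR was 2.80 ± 0.14 (adjusted p = 1.45e-07). For Slc39a1 these differences were 3.06 ± 0.13 (adjusted p = 3.46e-08) and 2.39 ± 0.13 (adjusted p = 2.34e-07). RPE minus CH was not called for Slc39a1 (-0.67 ± 0.13, adjusted p = 0.00511), Slc39a8 (-1.06 ± 0.14, adjusted p = 0.000824) or Slc39a11 (-0.96 ± 0.16, adjusted p = 0.00233), a zinc importer of internal membranes, although each had an adjusted p below 0.01. The fibroblast markers moved the same way, with 6 of 6 called higher in CH than in RPE. So did the mean of the pigment cell markers (0.47 to 0.75 in the CH and -0.70 to -0.15 in the RPE), with 3 of 5 called. Tyr, a gene of this list, went the other way. At both Tyr probes every RPE array lay above every CH array, with an adjusted p below 0.01 but no call. The part of fibroblasts and pigment cells in the differences of Slc39a1, Slc39a8 and Slc39a11 was not tested.

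**Figure D2:**
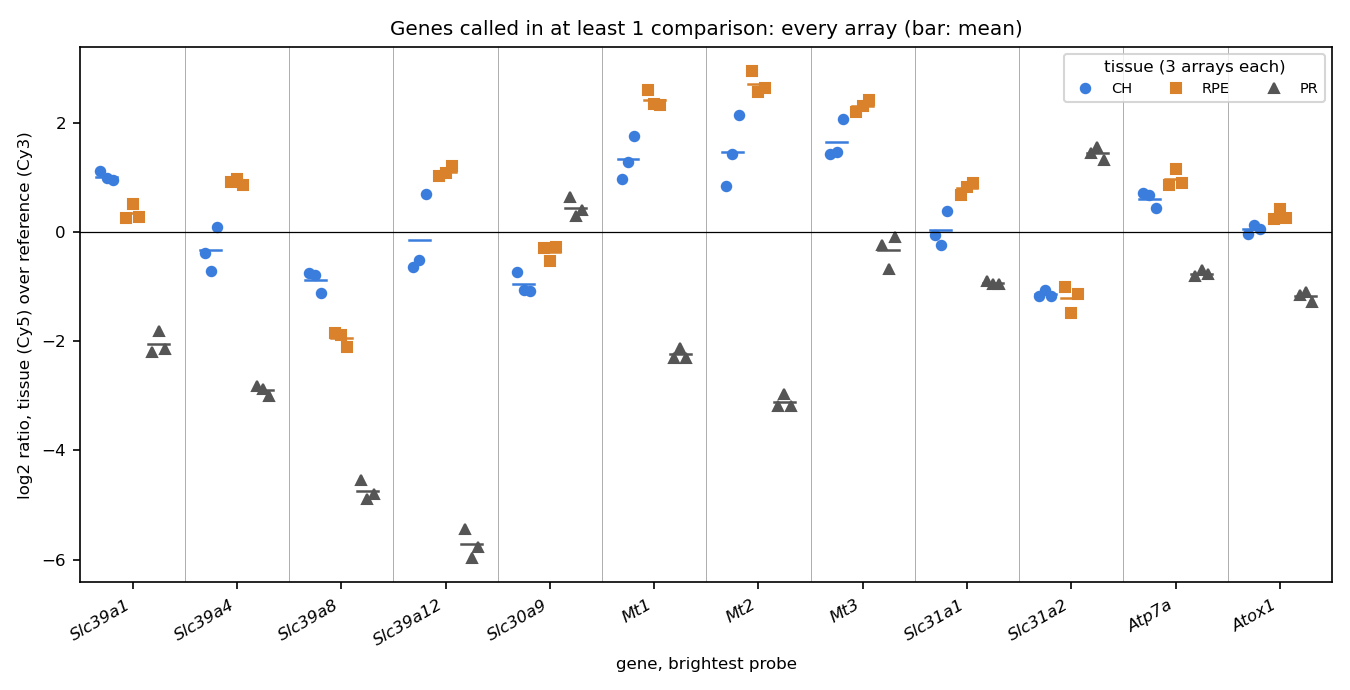
Log2 ratios of tissue over reference (vertical axis) on every array for the 12 genes with a call in at least 1 comparison, at the brightest probe. Circles are the CH, squares the RPE and triangles the PR, with a bar at the mean of the 3 arrays. The PR arrays lie below the other tissues except for Slc30a9 and Slc31a2.

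The other 10 importers had no call. Slc39a7 (ZIP7, which releases zinc from the endoplasmic reticulum) gave 0.52, 0.45 and 0.38 in the CH, 0.22, 0.41 and 0.15 in the RPE and -0.45, -0.18 and -0.21 in the PR, with RPE minus PR at 0.54 ± 0.11 (adjusted p = 0.00214). Slc39a13 (ZIP13, an importer of internal membranes needed in connective tissue) gave 0.07, 0.11 and 0.19 in the CH, 0.09, 0.39 and 0.28 in the RPE and -0.64, -0.43 and -0.63 in the PR, with RPE minus PR at 0.82 ± 0.11 (adjusted p = 0.00012). For both genes the PR arrays lay below all others and the CH and RPE arrays overlapped. Slc39a2, Slc39a3, Slc39a6 and Slc39a9 ran in the opposite direction, with negative differences to the PR and an adjusted p below 0.01 in both the RPE and the CH. The lowest value among them was -1.06 ± 0.14 for CH minus PR at Slc39a2 (adjusted p = 9.11e-05). By adjusted p alone, 4 of the 15 importer probes were higher in PR than in RPE, beside 19.4% of all probes. Against the CH, 4 were higher in the PR, beside 22%. In the other direction, 8 were higher in RPE than in PR and 9 in CH than in PR, beside 20.3% and 21.6% of all probes. Slc39a9 was not well above background on the CH arrays, and its PR signal was at least 1.67-fold higher than in the CH (adjusted p of the ratio = 3.29e-05). Slc39a5 was not well above background in the CH or the PR, and its ratio differed by 0.37 ± 0.10 for RPE minus PR (adjusted p = 0.0091), with the reference channel also higher, by 0.80, on the RPE arrays. Slc39a14 (ZIP14, which also carries iron and manganese) had the sign of Slc39a7, with CH minus PR at 0.67 ± 0.10 (adjusted p = 0.000194), and Slc39a10 had negative differences with an adjusted p above 0.01. Over the 10 genes, RPE minus PR ran from -0.93 at Slc39a2 to 0.82 at Slc39a13, and CH minus PR from -1.06 to 1.29 at Slc39a11.

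Of the 10 zinc exporters 1 had a call, Slc30a9, which was higher in the PR. Slc30a9 (ZnT9, a zinc transporter of mitochondria) at chr5:67746213-67746272 on mm9 gave -0.73, -1.05 and -1.08 in the CH, -0.29, -0.54 and -0.28 in the RPE and 0.65, 0.30 and 0.40 in the PR. The tissues did not overlap and the RPE lay between the CH and the PR. CH minus PR was -1.41 ± 0.14, an FC of 2.65 (adjusted p = 1.14e-05), while RPE minus PR was -0.82 ± 0.14 (adjusted p = 0.000601) and was not called. A second Slc30a9 probe gave -1.28 ± 0.18 for CH minus PR (adjusted p = 0.000172), which is an FC of 2.42. The call at the first probe was lost without PR replicate 1, with a difference of -1.31.

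Slc30a1 (ZnT1, the main zinc exporter of the cell surface) gave -0.38, -0.27 and -0.30 in the CH, -0.03, -0.17 and -0.15 in the RPE and -0.17, -0.53 and -0.19 in the PR. The RPE and PR arrays overlapped. The RPE exceeded the PR by 0.18 with a 95% interval from -0.07 to 0.43 (adjusted p = 0.223), and CH minus PR was -0.02 with an interval from -0.27 to 0.23 (adjusted p = 0.898). Both intervals exclude a 2.5-fold difference.

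Of the other exporters, Slc30a7 (ZnT7, which loads zinc into the Golgi apparatus) came closest to a call, with RPE minus PR at 1.27 ± 0.10 (adjusted p = 3.97e-06), an FC of 2.40. Slc30a5 (ZnT5, also of the secretory pathway) differed by 0.65 ± 0.13 (adjusted p = 0.00227). For RPE minus PR, the 9 genes without a call ran from -0.28 at Slc30a8 to 1.27 at Slc30a7. At an unadjusted p below 0.05, 4 of the 11 exporter probes favoured the RPE, beside 10610 of all 39429 probes. In favour of the PR were 3 exporter probes, beside 11147 of all probes. Slc30a2, Slc30a4 and Slc30a6, which load zinc into vesicles or the Golgi apparatus, differed by 0.43, 0.01 and 0.33 for RPE minus PR, each with an adjusted p above 0.05. Slc30a3 (ZnT3, which fills synaptic vesicles) and Slc30a8 (ZnT8, which fills insulin granules) were not well above background on any CH or PR array and on only 1 RPE array each. Slc30a10, which exports manganese, was not well above background in the PR, and its CH signal was at least 1.43-fold that of the PR (adjusted p of the ratio = 0.00212).

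The metallothioneins Mt1, Mt2 and Mt3 were higher in the RPE and the CH than in the PR, whereas Mt4 and Mtf1 had no call. The probes of the 4 metallothioneins lie on the plus strand of chromosome 8 of mm9 in the order Mt4, Mt3, Mt2 and Mt1, between positions 96662155 and 96704224. Mt1 and Mt2 are expressed in most tissues, Mt3 is known mainly from brain and Mt4 from stratified epithelia.

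Mt3 was measured without saturation. Its log2 ratios were 1.43, 1.48 and 2.08 in the CH, 2.20, 2.30 and 2.42 in the RPE and -0.24, -0.68 and -0.09 in the PR. All RPE arrays lay above all CH arrays, and these above all PR arrays. The difference of RPE minus PR was 2.64 ± 0.20, an FC of 6.24 (adjusted p = 2.28e-06), CH minus PR was 2.00 ± 0.20 (adjusted p = 1.39e-05) and RPE minus CH was 0.65 ± 0.20 (adjusted p = 0.0424).

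Mt1 gave 0.97, 1.28 and 1.76 in the CH, 2.61, 2.34 and 2.33 in the RPE and -2.30, -2.13 and -2.30 in the PR. Mt2 gave 0.85, 1.42 and 2.14 in the CH, 2.95, 2.57 and 2.65 in the RPE and -3.18, -2.97 and -3.19 in the PR. The ratios of the 3 tissues did not overlap at either gene. The Cy5 signal, however, was saturated at Mt1 on all CH and RPE arrays, and at Mt2 on all RPE arrays and on CH replicates 2 and 3. By the level of Cy5 after Aquantile normalization, Mt1 was at least 3.30-fold higher in RPE than in PR and at least 3.13-fold higher in CH than in PR, and Mt2 was at least 8.58-fold higher in RPE than in PR. The fit to the ratios gave an adjusted p of 3.55e-08 and 1.25e-07 for Mt1 and of 9.28e-08 for Mt2. A fit to Cy5 without the reference, normalized in another way, gave a log2 difference of 1.70 for RPE minus PR at Mt1 (adjusted p = 1.84e-05), slightly under the bound above, 1.70 for CH minus PR (adjusted p = 1.38e-05), and 3.14 for RPE minus PR at Mt2 (adjusted p = 1.25e-05). For CH minus PR at Mt2, with 1 of 3 CH arrays measured below saturation, the fitted difference was 4.59 ± 0.27 (adjusted p = 3.27e-07). The fit to Cy5 without the reference gave 2.90 for it (adjusted p = 1.42e-05). On CH replicate 1, the array below saturation, the Cy5 signal was 406824 against 47586 to 72154 on the PR arrays.

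The reference channel was not level at these probes. At Mt1 the Cy3 signal of the common reference, as scanned, was 88917, 64128 and 46616 on the CH arrays, 35014, 39155 and 38824 on the RPE arrays and 360559, 374533 and 289267 on the PR arrays. At Mt2 it was 25687 to 66559 in the CH and RPE samples but 180062 to 274831 in the PR samples. The reference was thus lowest where the tissue signal was saturated. At Mt2 it was also low, at 66559, on CH replicate 1, where Cy5 was not saturated. The log2 ratios hold this shift of the reference. After normalization the difference of 4.67 in RPE minus PR at Mt1 was made up of 1.72 from Cy5 and a Cy3 level that was lower by 2.95. At Mt2 the difference of 5.84 was made up of 3.10 from Cy5 and a Cy3 level lower by 2.73.

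For RPE minus CH at Mt1, the ratio differed by 1.09 (adjusted p = 0.0026), with 0.08 from Cy5 and a Cy3 level lower by 1.01, and no FC is given because both tissues were saturated. Over all probes, the normalized Cy3 signal differed between RPE and PR by more than 1 on the log2 scale at 0.535% of probes, and among the members only at Mt1 and Mt2. Of the 21 probes that were saturated on every RPE array and on no PR array, 17 had a Cy3 signal lower by more than 1 in the RPE. The part of saturation in the Cy3 shift was not tested. At Mt3, Cy3 was higher by 0.58 in RPE than in PR, and Cy5 by 3.22.

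**Figure D3:**
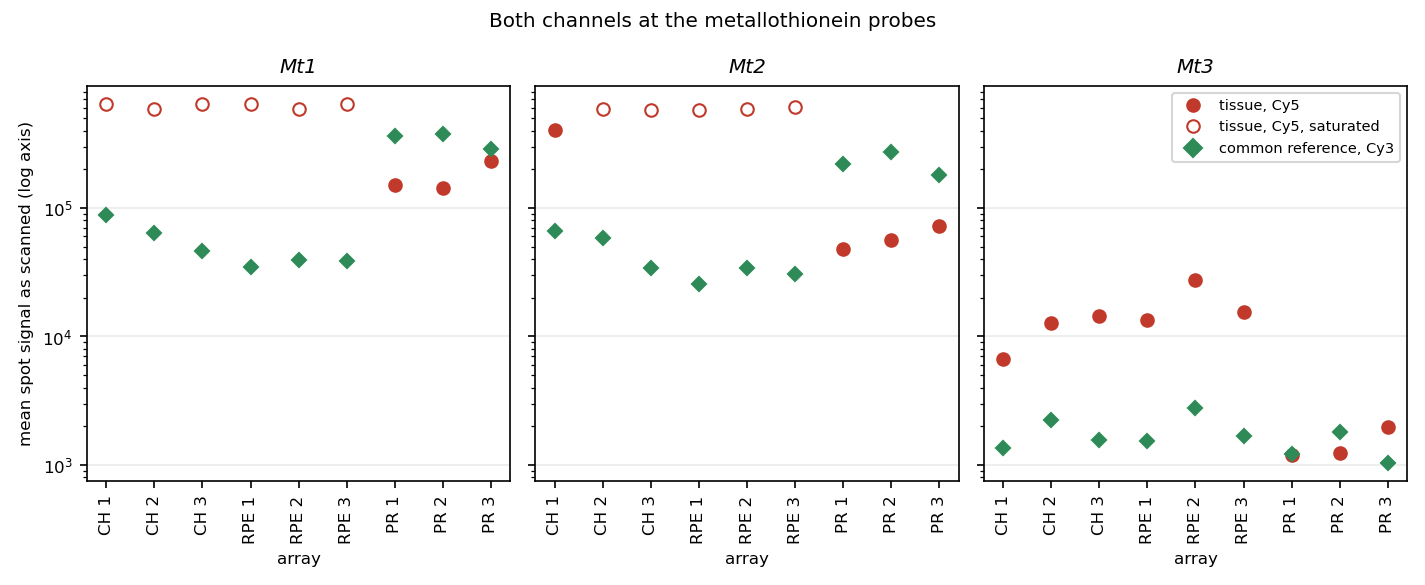
Mean spot signal as scanned (log axis) of the tissue channel (Cy5, circles, open where saturated) and of the common reference (Cy3, diamonds) on each of the 9 arrays at the probes of Mt1, Mt2 and Mt3. The reference at Mt1 is 35014 to 88917 in the CH and RPE samples but 289267 to 374533 in the PR samples, while at Mt3 it stays between 1037 and 2775.

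Mtf1, the regulator of the metallothioneins, had differences of the opposite sign. Its brightest probe, at chr4:124526365-124526424 on mm9, gave -0.56, -0.46 and -0.41 in the CH, -0.11, -0.19 and -0.16 in the RPE and 0.97, 0.35 and 0.71 in the PR. All PR arrays lay above all others. The difference for RPE minus PR was -0.83 ± 0.14 (adjusted p = 0.000761) and CH minus PR was -1.15 ± 0.14 (adjusted p = 6.76e-05), below the FC threshold in both. The other Mtf1 probes had the same sign, at -0.34 ± 0.18 (adjusted p = 0.146) and -0.92 ± 0.19 (adjusted p = 0.00244) for RPE minus PR. Mt4 differed by 0.22 ± 0.19 for RPE minus PR (adjusted p = 0.382).

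Among the copper genes, the 2 members of the Slc31a family had opposite patterns. Slc31a1 (CTR1, the high-affinity copper importer), at chr4:62052725-62052784 on mm9, gave -0.06, -0.23 and 0.39 in the CH, 0.68, 0.83 and 0.90 in the RPE and -0.89, -0.95 and -0.95 in the PR. Slc31a2 (CTR2, a related protein of intracellular membranes), at chr4:61959089-61959148 on mm9, gave -1.16, -1.07 and -1.16 in the CH, -1.01, -1.47 and -1.14 in the RPE and 1.45, 1.56 and 1.32 in the PR. The tissues did not overlap at Slc31a1, and at Slc31a2 the PR arrays lay apart from the overlapping CH and RPE arrays.

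RPE minus PR was 1.73 ± 0.15 at Slc31a1, an FC of 3.32 (adjusted p = 6.29e-06), and -2.65 ± 0.13 at Slc31a2, an FC of 6.28 in favour of the PR (adjusted p = 1.25e-07). A second Slc31a2 probe gave -2.01 ± 0.13 (adjusted p = 7.05e-07). CH minus PR was -2.57 ± 0.13 at Slc31a2 (adjusted p = 1.09e-07) and 0.96 ± 0.15 at Slc31a1 (adjusted p = 0.000338), the latter not called. RPE minus CH at Slc31a1 was 0.77 ± 0.15 (adjusted p = 0.00566), an FC of 1.70. Slc31a2 was the only member gene called higher in PR than in RPE.

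The copper pump Atp7a, mutated in Menkes disease, was higher in the RPE and the CH than in the PR. Its probe, at chrX:103319931-103319990 on mm9, gave 0.71, 0.68 and 0.45 in the CH, 0.86, 1.16 and 0.90 in the RPE and -0.81, -0.69 and -0.78 in the PR. RPE minus PR was 1.73 ± 0.11, an FC of 3.32 (adjusted p = 8.69e-07), and CH minus PR was 1.37 ± 0.11, an FC of 2.59 (adjusted p = 3.54e-06). Its relative Atp7b, mutated in Wilson disease, gave -0.11, -0.31 and -0.03 in the CH, 0.14, 0.23 and 0.15 in the RPE and 0.35, 0.56 and 0.55 in the PR. Atp7b was thus highest on the PR arrays, with CH minus PR at -0.63 ± 0.10 (adjusted p = 0.000523) and RPE minus PR at -0.31 ± 0.10 (adjusted p = 0.0321), and was not called.

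Of the chaperones, Atox1, which hands copper to both pumps, was called in the RPE against the PR. Its probe, at chr11:55260146-55260205 on mm9, gave -0.04, 0.14 and 0.05 in the CH, 0.24, 0.43 and 0.27 in the RPE and -1.14, -1.09 and -1.28 in the PR. RPE minus PR was 1.49 ± 0.10, an FC of 2.80 (adjusted p = 9.45e-07), and CH minus PR was 1.22 ± 0.10, an FC of 2.33 (adjusted p = 2.92e-06). Ccs gave 0.38, 0.27 and 0.22 in the CH, 0.15, 0.41 and 0.36 in the RPE and -0.26, 0.05 and -0.14 in the PR, with RPE minus PR at 0.42 ± 0.11 (adjusted p = 0.0103). Cox17 gave -0.46, -0.80 and -0.14 in the CH, -0.14, -0.91 and -0.02 in the RPE and -0.80, -1.51 and -1.29 in the PR, and the tissues overlapped. Its Cy5 signal as scanned was 918, 1130 and 375 on the replicate 2 arrays of the CH, RPE and PR, which share slide 3, against 16401 to 30218 on the other arrays, and Cy3 fell short in the same way (883 to 990 against 11923 to 15982). The Cox17 difference for RPE minus PR was 0.84 ± 0.27 (adjusted p = 0.0249).

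In the RPE against the CH, more member probes were called without CH replicate 3, while the call of the dimmer Slc39a12 probe stayed. The RPE marker level of CH replicate 3 was 1.05, against 0.47 and 0.32 on CH replicates 1 and 2. Its fibroblast marker level was 1.27, against 1.61 and 1.69. It was the CH array nearest to the RPE at Mt3, Slc31a1, Slc39a4 and the brighter Slc39a12 probe. Without it, Slc39a4 (1.46, adjusted p = 0.000157) and the brighter Slc39a12 probe (1.68, adjusted p = 0.00022) also passed. The Mt2 ratio passed as well (1.58, adjusted p = 0.000561), but between saturated arrays, and over all arrays Cy5 without the reference differed by 0.24 there (adjusted p = 0.626). With Mt2, this made 4 member probes called, against 0.444% of all probes. The part of RPE material on this array in these values was not tested.

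The arrays were read on 3 slides. Slide 2 held CH and RPE replicates 1 and 3, slide 3 held replicate 2 of each tissue, and slide 1 held only PR arrays. Within slides 2 and 3, RPE minus CH was 1.34 and 1.81 at the dimmer Slc39a12 probe, 1.02 and 1.69 at Slc39a4, 0.62 and 1.06 at Slc31a1 and -1.04 and -1.11 at Slc39a8. Within slide 3, RPE minus PR was 7.06 at Slc39a12, 3.86 at Slc39a4, 2.98 at Mt3, 1.85 at Atp7a, 1.78 at Slc31a1, 1.52 at Atox1 and -3.04 at Slc31a2. Each of these within-slide values had the sign of the value over all arrays.

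**Figure D4:**
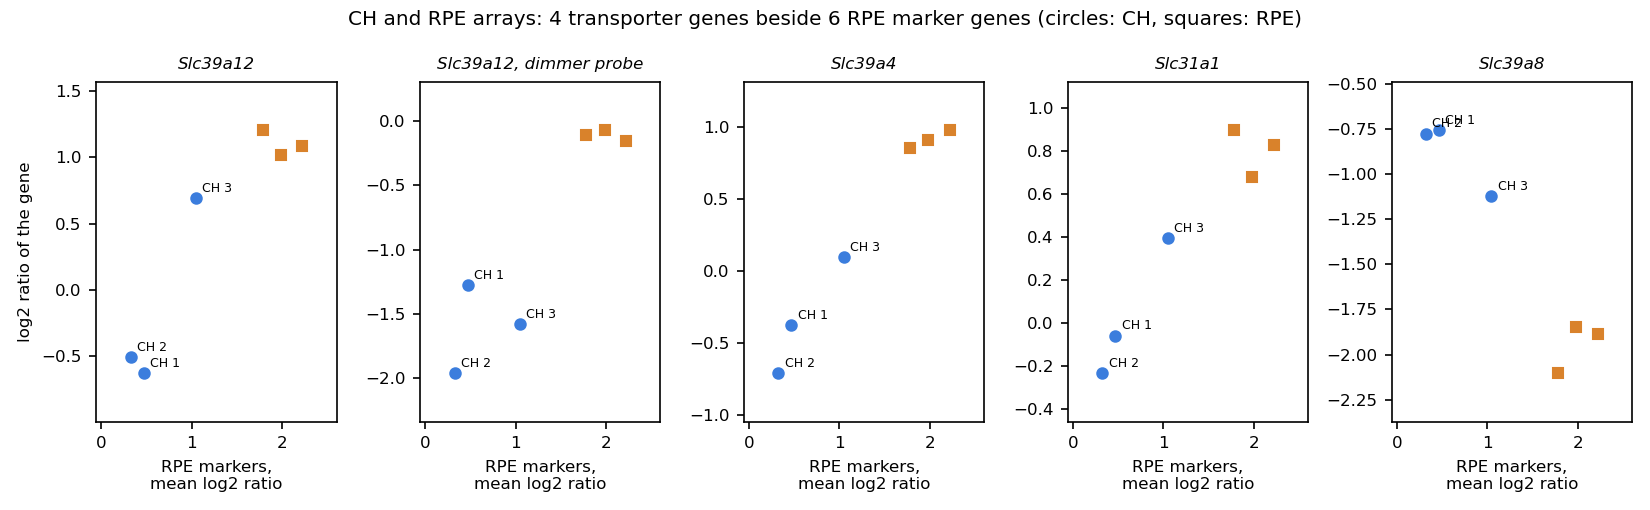
Log2 ratio of a gene (vertical axes) against the mean log2 ratio of 6 RPE marker genes (horizontal axes) on the 3 CH arrays (circles, labelled) and the 3 RPE arrays (squares), for both Slc39a12 probes, Slc39a4, Slc31a1 and Slc39a8. CH replicate 3, at a marker level of 1.05, lies nearest to the RPE arrays except at the dimmer Slc39a12 probe.

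By rank of the Cy5 signal among all probes of the RPE arrays, 9 member genes lay in the highest decile. These were Mt1, Mt2, Atox1 (percentile 96.9), Slc31a1 (92.6), Slc30a5 (90.7) and the importers Slc39a1, Slc39a4, Slc39a7 and Slc39a12. Such a rank depends also on the probe, so that it is no order of RNA amounts between genes. When the ranking was limited to probes detected above background in all 3 RPE samples, 5 of these genes remained in the decile: Mt1, Mt2, Atox1, Slc39a1 and Slc39a4.

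A second list of 30 other zinc and copper genes, none of them members, was measured by 46 probes. In the RPE against the PR, 18 of its probes (39.1%) of 12 genes were called higher in the RPE, against 10.2% of all probes, and 2 probes (4.35%), of Prnp and Xiap, higher in the PR, against 5.22% of all probes. The first group held the copper enzymes Sod1 and Sod3 (superoxide dismutases), Tyr (tyrosinase), Heph (a ferroxidase), Aoc3 and the lysyl oxidases Lox, Loxl1, Loxl2, Loxl3 and Loxl4, and also App and Steap4. In the CH against the PR, 22 probes (47.8%) of 14 genes were called higher in the CH, against 12% of all probes, and 4 probes (8.7%), of Prnp, Steap2 and Xiap, higher in the PR, against 6.4% of all probes. Between the RPE and the CH, Loxl4 was called higher in the RPE and Lox higher in the CH, 1 probe each (2.17%), against 0.185% and 1.55% of all probes. Lysyl oxidases cross-link collagen, and the fibroblast markers differed between these tissues in the same direction as Lox. The part of fibroblasts in the Lox difference was not tested.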

How the data were processed

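The authors scanned the arrays with Agilent Feature Extraction 9.5.3.1 and deposited, for each spot, the mean signal and local background of both dyes as intensity values, and a log10 ratio of processed Cy5 over Cy3. The deposited series table gives the tissue channel on a log2 scale, normalized in a way not given in the sources used here (median per array 9.38 to 9.55, correlation with the scanned log2 Cy5 signal 0.985 to 0.999). The ratio and the table served only as alternatives.

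Intensities were background-corrected by normexp with an offset of 50, and ratios were loess-normalized within each array, without control spots. Spots with an outlier mark (228 to 586 per array) were left out, and the spots of a probe were averaged. The median Cy5 signal was 617 to 1534 per array, and 62.1% to 91.7% of probes were well above background, most on RPE replicate 2. Precision is limited by the 3 arrays per tissue. Tissue means were fitted to all 9 arrays with limma 3.58.1 in R 4.3.3 and p-values were adjusted over 39429 probes. The fit was tested on simulated data.

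A gene is reported at its brightest probe over the 9 arrays, and its other probes where they differ in call or sign. Per-array values are given for genes with a call and for a list of zinc and copper genes of interest. The members, lists and tests were chosen with earlier results of these data known. Bounds ("at least") use the Cy5 level after loess and Aquantile, take as floor on each array the higher of the probe's own signal and the lowest signal among probes well above background, and are open to dye bias. Cy5 percentiles were computed in R, and promoters and figures used Python 3.11.15. Probe positions are those of the files on mm9, whose gene annotation was not used here, so that exon or intron is not stated.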

Additional observations from a re-analysis of the deposited data

How the results depend on the processing

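Of the 26 called differences, 22 were called under every one of the 22 alternative fits that gave a value, and none turned its sign. The exceptions were the CH minus PR difference of Atp7a (1.11 with the Feature Extraction log ratio, and adjusted p = 0.0106 from Cy5 without the reference), that of Slc30a9 without PR replicate 1, that of the dimmer Slc39a12 probe from Cy5 alone (1.31) and its RPE minus CH call with median centring (1.29) or without CH replicate 2. Of the 42 member probes, those called higher in RPE than in CH numbered 0 with median centring, beside 0.033% of all probes. They numbered 2 with the mean of a gene's probes, 4 at an FC above 2 and 5 by adjusted p alone. The shares over all probes were 0.17%, 1.04% and 5.18%. Mt1 and Mt2, saturated in both tissues in whole or part, were among these 5. When an array was left out, the count was 0 to 4, beside 0.0533% to 0.444% of all probes. Those higher in CH than in RPE numbered 1 with median centring and at an FC above 2 (Slc39a8 in both), beside 2.96% and 3.29% of all probes. By adjusted p alone they numbered 3, beside 6.91% of all probes. By adjusted p alone, 10 of the 42 were higher in PR than in RPE, 18 in CH than in PR and 11 in PR than in CH. The shares over all probes were 19.4%, 21.6% and 22%. The count higher in PR than in CH was 6 with the Feature Extraction log ratio and at an FC above 2, beside 11.1% and 10.6% of all probes. It was 5 from Cy5 alone and from the series table, beside 9.03% and 8.14%. The causes were not tested. In the highest decile of the RPE signal, 5 genes were left when only probes well above background were ranked. The series table held no RPE value for Mt1 or Mt2, and from Cy5 alone RPE minus PR was 1.70 and 3.14 for them. The median over all probes for CH minus PR, -0.06 in the reported fit, lay between -0.14 and -0.11 under 5 alternatives.

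Whether the replicate numbers pair the arrays could not be told from 3 arrays per tissue. The correlation of same-numbered deviations from the tissue means ran from -0.076 to 0.289. Between arrays of different numbers it ran from -0.314 to 0.247. The replicate 2 arrays also shared slide 3, so that number and slide cannot be separated there. The replicate block left the member counts at 11 and 2 for RPE against PR, 9 and 3 for CH against PR, and 1 and 0 for RPE against CH, and no call of a member probe changed.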
